A study of Mus musculus with 2 samples.

Results

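Type 2 innate lymphoid cells (ILC2s) of Nf1OPG mouse optic nerves were 61 of 25652 cells kept after quality filters, a share of 0.238% (exact Clopper-Pearson 95% interval 0.182 to 0.305%). They were chosen by their own measured counts of unique molecular identifiers (UMIs, each standing for 1 captured mRNA molecule). A member had at least 1 UMI of Gata3, at least 2 UMIs summed over Il1rl1, Il17rb, Il13, Il5 and Rnf128, no UMI of Cd3d, Cd3e, Cd3g or Foxp3, and at most 2 UMIs of the mast cell proteases Cma1, Mcpt4, Tpsb2 and Cpa3. These 14 genes are therefore a description of how the cells were picked, and no test is given for them.

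ILC2s are tissue-resident lymphocytes without a rearranged antigen receptor that act as the innate counterpart of T helper 2 cells. The transcription factor GATA3 sets their identity, and the alarmins IL-33, IL-25 and TSLP, released by stressed or damaged tissue, activate them through receptors that include ST2, encoded by Il1rl1. Activated ILC2s secrete IL-13, IL-5, amphiregulin and other mediators, and in the central nervous system they have been described mainly in the meninges.

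Single-cell libraries had been prepared from optic nerves of Nf1OPG mice (Nf1 flox/mut; GFAP-Cre, C57BL/6 background), which carry 1 germline mutant Nf1 allele in every cell, lymphocytes included, and lose the other allele in cells in which the GFAP promoter drove Cre. The nerves were dissociated and cleared of debris and myelin. The labels describe nerves pooled from 10 mice at 12 weeks of age, and they give no treatment. The 2 libraries, C-ON and FMC_new, share this genotype although the title of C-ON also carries the word control, so they were set side by side and no test was made between them. The 5' libraries held 10845 and 21341 barcodes, of which 8834 and 16818 were kept. FMC_new carried mRNA of the pituitary hormone gene Gh in 47 of 47 members and 724 of 724 CD4 T cells, and C-ON in none of either. The libraries had 188 kept barcodes in common, 2.13% of the smaller library, and 1 of these was an ILC2 member in 1 library and none was a member in both. No doublet caller was run.

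C-ON gave 14 members of 8834 kept cells (0.158%, 95% interval 0.0867 to 0.266%), and FMC_new gave 47 of 16818 (0.279%, 0.205 to 0.371%). The intervals overlap and cover counting error only. With cells thinned to 2000 UMIs, C-ON gave 7 of 8104 cells (0.0864%) and FMC_new 35 of 13697 (0.256%). Members held a median of 3319.5 UMIs in C-ON and 4189 in FMC_new, beside 3364 to 3782 in the other lymphocyte types. The comparators were 902 conventional CD4 T cells (178 and 724), 419 regulatory T cells (71 and 348) and 309 natural killer (NK) cells (79 and 230). They were picked in the same way from their Cd3, Cd4, Cd8, Foxp3 and NK receptor counts.

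The label was checked against the remaining T cell and other markers. Trdc, the constant segment of the delta T cell receptor chain, had 0 UMIs in all 61 members. The gamma chain constant segments Tcrg-C1 and Tcrg-C4 went the other way. Each was called higher in members than in CD4 T cells and regulatory T cells. Trac, the alpha chain constant segment, had 0 UMIs in C-ON members and 2 UMIs in 2 of 47 FMC_new members, against 603 UMIs in 364 of 724 FMC_new CD4 T cells. Trbc2, a beta chain constant segment, was seen in 3 of 14 and 13 of 47 members. NK cells, which lack an alpha-beta receptor too, had Trbc2 UMIs in 21 of 79 and 79 of 230 cells. Trbc1, the other beta chain constant segment, was tested and was not called against any type, so it did not set members apart from T cells. Members without a UMI of Trac, Trbc1 or Trbc2 were 11 of 14 in C-ON and 28 of 47 in FMC_new.

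Markers of other cell classes were present in part of the members. A class was reached at a minimum of 2 to 5 UMIs of its markers. In C-ON, 4 of 14 members reached the minimum for oligodendrocytes and 1 each for macrophages or microglia, dendritic cells and endocrine cells. In FMC_new, 22 of 47 reached it for plasma cells, 5 for macrophages or microglia, 3 each for oligodendrocytes and endocrine cells, 2 each for dendritic cells and astrocytes and 1 for glioma or oligodendrocyte precursor cells. The plasma cell minimum in FMC_new was reached by 46.8% of members and by 51.4 to 55.7% of the other lymphocyte types. For oligodendrocytes in C-ON the shares were 28.6% and 28.7 to 42.3%. For macrophages or microglia members were higher, at 7.14% beside 0 to 2.82% in C-ON and 10.6% beside 4.35 to 8.7% in FMC_new. Fibroblast, endothelial, neutrophil, B cell, mast cell, T cell and NK classes were reached by 0 members. The T cell and mast cell zeros follow from the membership rule itself and check nothing. Without the members that reached any other class, 28 members were left (9 and 19), a share of 0.109%.

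**Figure D1:**
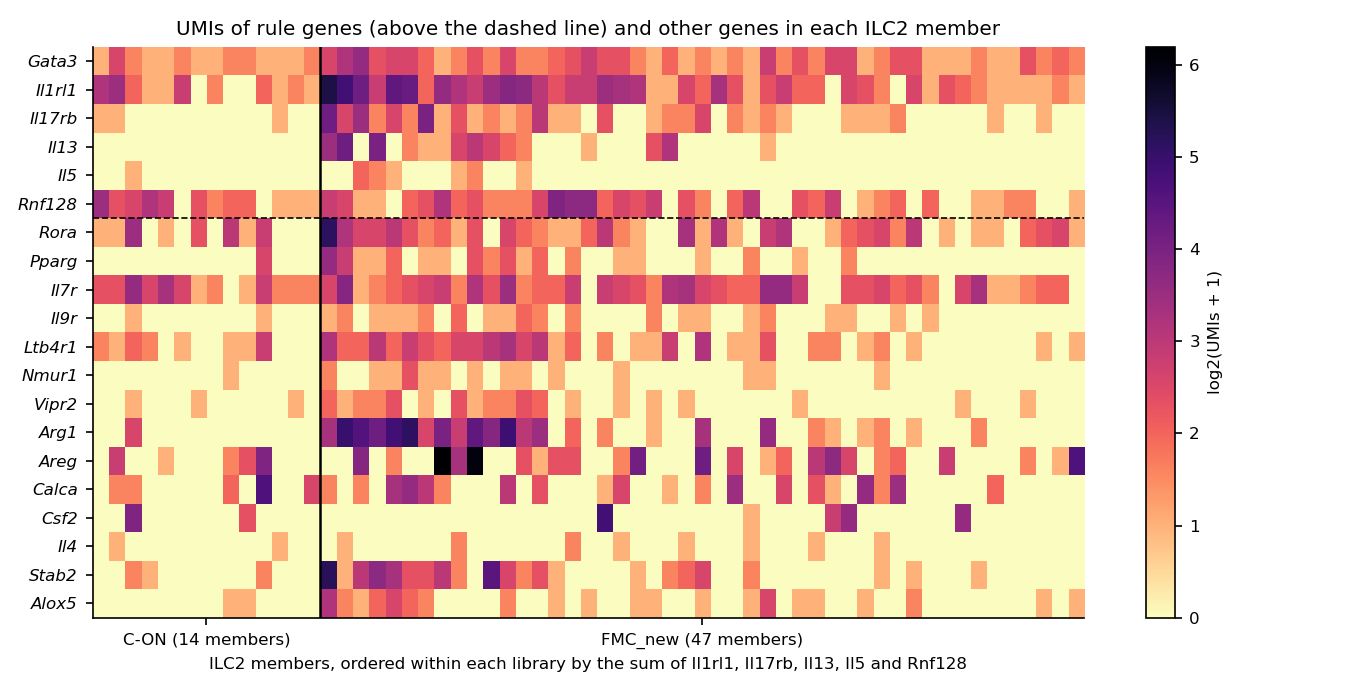
UMIs of the named genes (rows, rule genes above the dashed line) in each of the 14 C-ON and 47 FMC_new members (columns), coloured by log2 of UMIs plus 1. Il13 is at 0 in all 14 C-ON members and is detected in 15 of the 47 FMC_new members.

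Of the 5 genes summed in the rule, Il1rl1 was seen in 56 of 61 members, Rnf128 in 48, Il17rb in 34, Il13 in 15 and Il5 in 7. Il1rl1, the IL-33 receptor, had 38 UMIs in 11 of 14 C-ON members and 316 UMIs in 45 of 47 FMC_new members. Scaled by the summed UMIs of the members in each library (CPM), that is 636 and 1457 CPM. Il17rb, a subunit of the IL-25 receptor, had 3 UMIs in 3 members and 103 UMIs in 31 members. Rnf128, the E3 ubiquitin ligase GRAIL, had 48 UMIs in 12 members and 147 UMIs in 36 members. Of all Il1rl1 UMIs in kept cells, members held 25% in C-ON and 34.2% in FMC_new. Of the Il17rb UMIs in C-ON, members held 0.302%.

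Cytokine mRNA of the rule was seen in fewer members. Il13, the cytokine that drives type 2 responses in epithelium, had 0 UMIs in 14 C-ON members, which allows a share of up to 21.4% of cells with a UMI by the floor of 3 counts, and of up to 23.2% by the exact interval. Il13 was not absent from C-ON: 4 kept cells held 68 Il13 UMIs, with 0% of them in members. In FMC_new Il13 had 82 UMIs in 15 of 47 members, and these held 41% of the library's Il13 UMIs. Il5, the eosinophil growth factor, had 1 UMI in C-ON and 10 UMIs in 6 FMC_new members. Il13 and Il5 were seen together in 4 FMC_new members.

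At the edge of the rule, 4 members had a sum of exactly 2, and they had 847 CPM of Il7r and 0 UMIs of Arg1, Nmur1, Pparg and Slc7a8. A further 13 cells met every other condition with a sum of 1, and they had 251 CPM of Il7r and 0 UMIs of Arg1. Of 113 cells with Gata3 and a sum of at least 2, 49 had a UMI of Cd3d, Cd3e or Cd3g. Of these, 6 cells met every other condition with a single Cd3 UMI, and they had 693 CPM of Il7r, 1252 CPM of Arg1 and 719 CPM of Calca. Another 31 cells met every other condition with 2 or more Cd3 UMIs. They had 355 CPM of Il7r, 215 CPM of Arg1, 211 CPM of Calca and 409 CPM of Areg. Ltb4r1 was at 120 CPM in these cells, seen in 9 of them, and Nmur1 had 5 UMIs in 5 cells. These genes were therefore not confined to members, and Gata3 cells with CD3 mRNA carried them too.

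Il13 and Il5 lie in the type 2 cytokine cluster on chromosome 11 (GRCm38, GENCODE vM21), in the order Kif3a, Il4, Il13, Rad50, Il5 and Irf1. Il13 spans 11:53631324-53634702 on the minus strand and Il5 spans 11:53720794-53725106 on the plus strand, where Gm12214 overlaps it on the other strand, 86092 bases from start to start. Calca lies elsewhere, at 7:114631478-114636357 on the minus strand. The 250 bases before the annotated start of these 3 genes are shown because they encode the type 2 cytokines of the rule and the neuropeptide gene called higher in each comparison, and because GATA3, the factor used to choose the cells, binds GATA motifs. Sequences are RefSeq's (GRCm38.p6), 5′ to 3′ on the strand of the gene, with GATAA, or TTATC for the other strand, in capitals.
Il13 (chr11:53634703-53634952): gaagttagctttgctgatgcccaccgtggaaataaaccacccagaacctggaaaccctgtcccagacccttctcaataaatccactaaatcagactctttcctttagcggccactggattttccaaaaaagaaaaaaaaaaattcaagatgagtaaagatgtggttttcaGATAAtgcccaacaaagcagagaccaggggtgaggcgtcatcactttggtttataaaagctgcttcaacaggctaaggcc
Il5 (chr11:53720544-53720793): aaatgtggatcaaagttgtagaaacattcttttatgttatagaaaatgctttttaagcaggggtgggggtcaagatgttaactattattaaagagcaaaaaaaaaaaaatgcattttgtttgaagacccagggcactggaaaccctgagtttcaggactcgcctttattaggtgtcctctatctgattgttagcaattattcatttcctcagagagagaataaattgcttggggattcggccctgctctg
Calca (chr7:114636358-114636607): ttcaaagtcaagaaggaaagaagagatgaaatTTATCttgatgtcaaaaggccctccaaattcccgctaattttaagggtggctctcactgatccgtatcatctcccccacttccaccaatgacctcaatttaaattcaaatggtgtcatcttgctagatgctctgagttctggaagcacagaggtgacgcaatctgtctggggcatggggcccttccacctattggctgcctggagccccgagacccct

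The motif stood once in the Il13 window, once on the other strand in the Calca window, and not in the Il5 window. It is common: 22.6% of 32851 RefSeq windows of this length held it on either strand. Counted by gene, with the motif in any of its windows, the share was 25.5% of 27025 genes. The shares that follow are counted by gene. Of the genes with a window that were higher in ILC2s than in CD4 T cells, 22.8% held it, and of those that were lower, 19.5%. Against NK cells the shares were 22.8% of higher and 23.4% of lower genes, and against regulatory T cells 23.4% and 25.7%, so higher genes did not hold it more often throughout. Of the 7200 tested genes with a window, 17.6% held it, below the share in each called set, higher and lower alike. This difference was not tested.

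Summed counts of the 4 cell types in the 2 libraries were compared by edgeR's quasi-likelihood test with library as a covariate, and 9137 genes outside the rules were tested. A gene was called at a Benjamini-Hochberg adjusted p under 0.05 and a fold of at least 2. Against CD4 T cells, 4.28% of genes were called, 2.16% higher (197) and 2.12% lower (194) in ILC2s. Against NK cells, 4.64% were called, 2.4% higher (219) and 2.24% lower (205). Against regulatory T cells, 4.29% were called, 2.39% higher (218) and 1.9% lower (174). The 3 comparisons share the ILC2 sums, so their values stand side by side and are not independent. Log2 differences are ILC2 minus the other type, ± SE, from 2 libraries a type. The SE was worked back from the test, as the size of the log2 difference over the square root of its F value. It is approximate, and rough where a type has few UMIs. C-ON has few members, and of 292 values of named genes, 199 moved and 5 reversed when FMC_new was left out. The reversals of Neb and Cxcl2 come from 0 UMIs in C-ON members and are not measured ones.

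**Figure D2:**
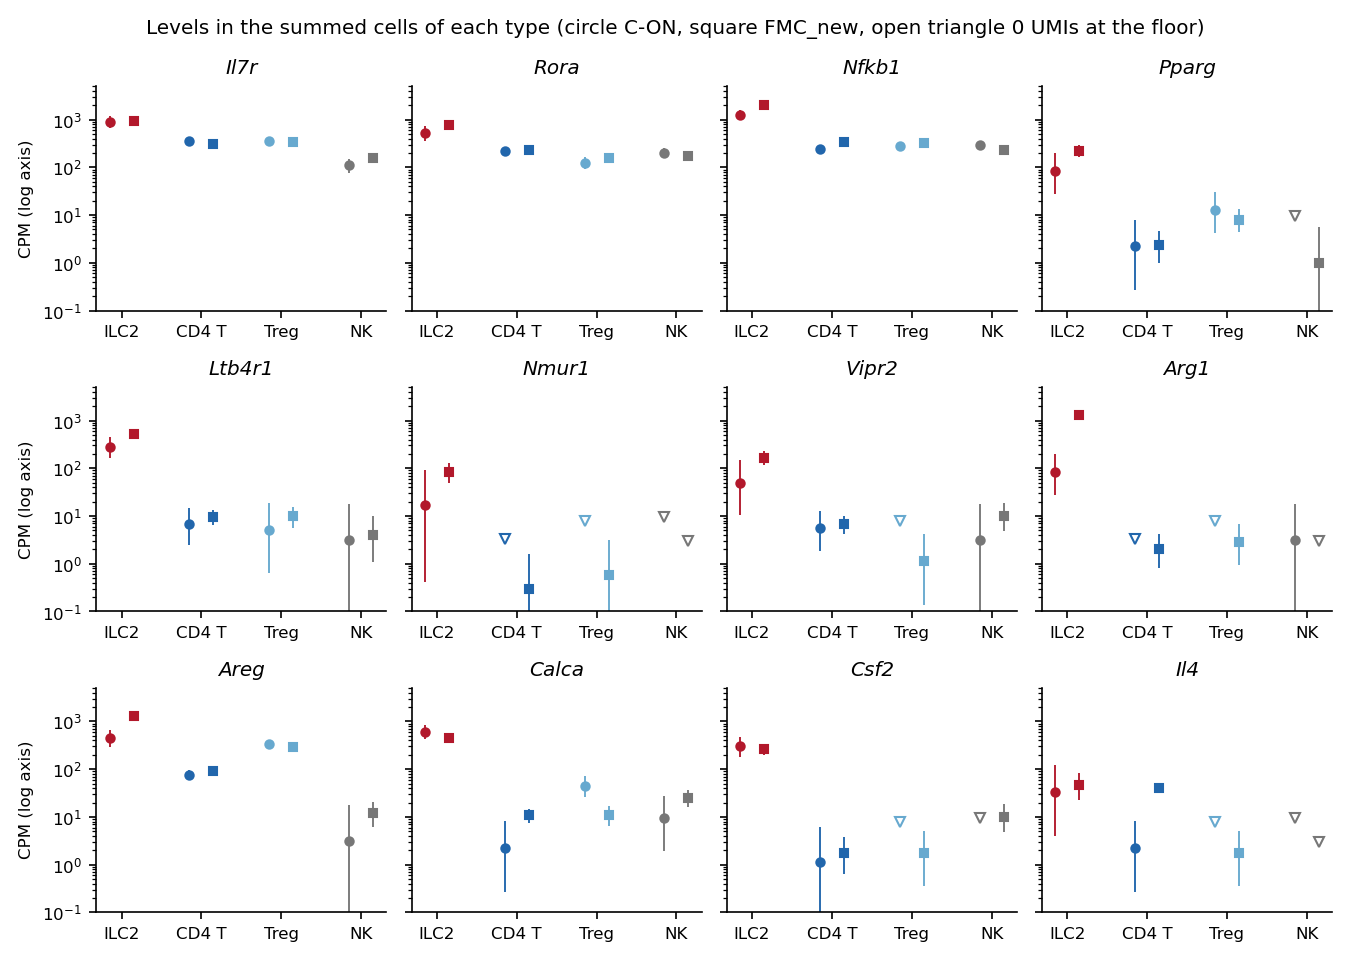
CPM of the summed UMIs of ILC2s, conventional CD4 T cells, regulatory T cells and NK cells for the genes plotted, with circles for C-ON, squares for FMC_new, exact Poisson 95% intervals and open triangles at the floor for 0 UMIs, on a log axis. Ltb4r1 stands at 285 and 521 CPM in ILC2s and below 10 CPM in the other types.

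Among 21 transcription factors of lymphoid identity, 3 were higher and 1 lower in ILC2s than in CD4 T cells, 6 were higher than in NK cells, and 3 were higher and 1 lower than in regulatory T cells. Rora, which encodes RORα, a factor needed for ILC2 development, stood at 519 CPM in C-ON and 784 CPM in FMC_new members. Both values lie above the 125 to 225 CPM of the other types, and the log2 differences were 1.64 ± 0.30 from CD4 T cells, 1.93 ± 0.31 from NK cells and 2.27 ± 0.31 from regulatory T cells (edgeR, adjusted p = 0.006, 0.0024 and 0.0009). Pparg, a lipid-sensing nuclear receptor, had 5 UMIs in 1 C-ON member and 48 UMIs in 19 FMC_new members, and it was higher by 6.37 ± 0.59, 7.83 ± 0.82 and 4.38 ± 0.55 (adjusted p = 7.0e-05, 0.00013 and 0.00054). From C-ON alone the difference from regulatory T cells was 2.48. Nfkb1, the p50 subunit of NF-κB, was at 1272 and 2015 CPM against 234 to 340 CPM elsewhere.

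Tcf7 and Bcl11b passed the test against 1 comparator each. Tcf7, which encodes TCF-1, had 0 UMIs in C-ON and 6 in FMC_new members and was lower than in CD4 T cells by −3.01 ± 0.49 on the log2 scale (adjusted p = 0.003), while the difference from regulatory T cells was 0.13 ± 0.66 (adjusted p = 0.98). Bcl11b, a factor of T cells and ILC2s, was at 50.2 and 138 CPM, higher than the 15.7 and 7.98 CPM of NK cells by 3.64 ± 0.52 (adjusted p = 0.0011), and by 1.59 from C-ON alone. Its differences from the T cell types were 0.06 ± 0.36 and −0.08 ± 0.37 (adjusted p = 0.97 and 0.96). Id2, which all innate lymphoid cells need, stood at 318 and 977 CPM and was not called against any type.

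Of 20 cytokine receptor genes tested, 4 were higher and 5 lower than in CD4 T cells, 6 and 5 against NK cells, and 3 and 5 against regulatory T cells. Il7r, the receptor of the survival cytokine IL-7, was seen in 13 of 14 and 42 of 47 members at 904 and 922 CPM. The other types ranged from 110 to 358 CPM, and the differences were 1.49 ± 0.29, 2.86 ± 0.31 and 1.41 ± 0.29 (edgeR, adjusted p = 0.0092, 0.00016 and 0.014). Il2ra, the high-affinity IL-2 receptor chain, was at 268 and 369 CPM, higher than in CD4 T cells by 2.74 ± 0.36 (adjusted p = 0.00075) and than in NK cells by 3.25 ± 0.40 (adjusted p = 0.00042). Against regulatory T cells, for which Il2ra is a hallmark, the difference was −0.19 ± 0.34 (adjusted p = 0.86).

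Il9r, through which IL-9 sustains ILC2s, had 2 UMIs in 2 C-ON and 31 UMIs in 21 FMC_new members, and it was higher by 4.83 ± 0.67, 7.18 ± 0.97 and 4.99 ± 0.75 (edgeR, adjusted p = 0.00097, 0.00085 and 0.0017), the last of these 2.44 from C-ON alone. Il10ra, an IL-10 receptor chain, was at 285 and 240 CPM against 43.9 to 78.3 CPM elsewhere. In the other direction, Ifngr1, a chain of the interferon gamma receptor, stood at 201 and 152 CPM in ILC2s and at 488 to 893 CPM in the other types. Its differences were −1.52 ± 0.30, −2.16 ± 0.30 and −2.29 ± 0.30 (adjusted p = 0.01, 0.001 and 0.00073). Il2rb was lower too, at 100 and 101 CPM against 293 CPM or more.

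Among costimulatory receptors of the TNF family, Tnfrsf4 and Tnfrsf9 were lower in ILC2s than in both T cell types. Tnfrsf4 (OX40) had 0 UMIs in C-ON and 7 in FMC_new members, and Tnfrsf9 (4-1BB) had 0 and 4. Tnfrsf4 was lower than in regulatory T cells by −5.28 ± 0.52 (edgeR, adjusted p = 0.00014) and than in CD4 T cells by −3.71 ± 0.53 (adjusted p = 0.0011), and higher than in NK cells, which had 1 UMI. Tnfrsf18 (GITR) stood at 285 and 244 CPM, with a difference of 0.26 ± 0.29 from CD4 T cells (adjusted p = 0.75) and one of −1.27 ± 0.29 from regulatory T cells (adjusted p = 0.027), which was lost without the members of another class.

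Receptors of neuropeptides and lipid mediators were mostly higher in ILC2s. Of 13 tested, 7 were higher and 1 lower than in CD4 T cells, 8 were higher than in NK cells and 8 were higher than in regulatory T cells. Their median log2 differences were 2.10, 3.61 and 3.62, beside −0.106, −0.106 and −0.126 over all genes tested. The 1 lower gene was Ptger2, a prostaglandin E2 receptor. Ptgdr2, the prostaglandin D2 receptor CRTH2, had too few counts to test.

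Ltb4r1, the high-affinity receptor of leukotriene B4, had 17 UMIs in 8 C-ON members and 113 UMIs in 31 FMC_new members. That is 285 and 521 CPM, against 3.13 to 9.78 CPM in the other types. The differences were 5.82 ± 0.31, 7.03 ± 0.40 and 5.86 ± 0.33 (edgeR, adjusted p = 1.5e-06, 3.7e-06 and 3.7e-06). With each cell thinned to 1000 UMIs, Ltb4r1 was seen in 32.8% of members and 1.12% of CD4 T cells. Cysltr1, a cysteinyl leukotriene receptor, was at 100 and 55.3 CPM against 2.6 to 7.26 CPM. Alox5, the 5-lipoxygenase that makes leukotrienes, had 2 and 44 UMIs and was higher than in CD4 T cells by 6.55 ± 0.67 (adjusted p = 0.00013).

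Nmur1, the neuromedin U receptor through which neurons activate ILC2s, had 1 UMI in C-ON and 18 UMIs in 14 FMC_new members. There was 1 Nmur1 UMI in all CD4 T cells, 1 in all regulatory T cells and 0 in NK cells, so that members were at least 30.3-fold higher than NK cells, a limit that C-ON with its 1 UMI cannot give alone. Vipr2, a receptor of vasoactive intestinal peptide, was at 50.2 and 166 CPM and was higher by 4.45 ± 0.56, 4.17 ± 0.60 and 7.20 ± 0.76 (edgeR, adjusted p = 0.00055, 0.0012 and 0.00022). Ptgir, the prostacyclin receptor, was at 117 and 46.1 CPM against at most 2.9 CPM elsewhere.

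The CGRP receptor is built from Calcrl and Ramp1. Ramp1 stood at 234 and 765 CPM, higher than in CD4 T cells by 1.87 ± 0.43 (edgeR, adjusted p = 0.027). From C-ON alone this difference was 0.33, from FMC_new alone it was 2.69, and DESeq2 did not call it. Calcrl had 5 and 9 UMIs and passed the test only against regulatory T cells, at 2.82 ± 0.66 (adjusted p = 0.029), and not once the members of another class were left out.

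**Figure D3:**
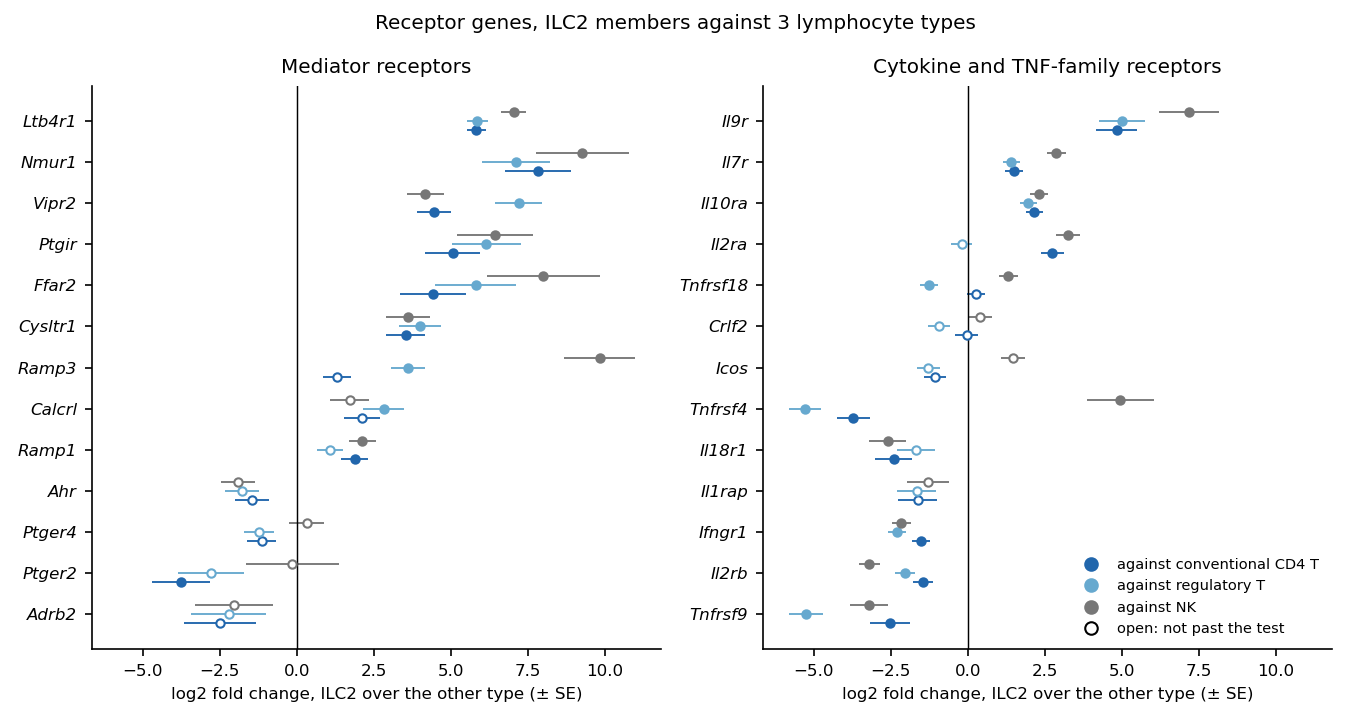
Log2 differences of receptor genes, ILC2 minus each of the other 3 types, with open points for values that did not pass the test. Bars are approximate SEs worked back from the F value of the edgeR test. Ltb4r1 lies at 5.82, 7.03 and 5.86, to the right of 0 in each comparison, and Ifngr1 lies to the left.

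Of 22 secreted products tested, 4 were higher and 5 lower than in CD4 T cells, 8 and 4 against NK cells, and 7 and 4 against regulatory T cells. Calca, which encodes calcitonin and the neuropeptide CGRP, had 36 UMIs in 5 C-ON members and 99 UMIs in 20 FMC_new members. That is 603 and 456 CPM, against 2.22 to 44.1 CPM in the other types, and the differences were 5.97 ± 0.51, 4.72 ± 0.53 and 4.8 ± 0.53 (edgeR, adjusted p = 3.7e-05, 0.00021 and 0.00028). With cells thinned to 1000 UMIs, 27.9% of members had a Calca UMI beside 0.784% of CD4 T cells and 1.69% of regulatory T cells. A single member carried 24 of the 36 C-ON UMIs.

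Areg, the tissue-repair factor amphiregulin, had 27 UMIs in 5 members and 279 UMIs in 24 members. At 452 and 1286 CPM it was higher than in CD4 T cells by 3.42 ± 0.44 (edgeR, adjusted p = 0.00066; 2.39 from C-ON alone) and than in NK cells by 6.75 ± 0.58 (adjusted p = 3.9e-05). Regulatory T cells, which make amphiregulin too, were at 330 and 289 CPM, and the difference of 1.5 ± 0.42 missed the threshold (edgeR, adjusted p = 0.071). Of the Areg UMIs of members, 3 members held 88.9% in C-ON and 57.3% in FMC_new.

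Csf2, which encodes GM-CSF, was concentrated in few cells. It had 18 UMIs in 2 C-ON members and 57 UMIs in 5 FMC_new members, and 3 of the 61 members held 70.7% of these UMIs. The differences were 7.52 ± 0.54, 5.40 ± 0.52 and 7.71 ± 0.62 (edgeR, adjusted p = 1.1e-05, 7.5e-05 and 3.6e-05). Il4 had 2 and 10 UMIs in members. CD4 T cells had 2 and 139 Il4 UMIs, and the difference from them was 0.84 ± 0.68 (adjusted p = 0.62), whereas NK cells had 0, which put members at least 19.1-fold higher, 15.4-fold within FMC_new, while 2 UMIs set no limit in C-ON. Cxcl2, a neutrophil chemokine, was called higher against each type but had 0 UMIs in C-ON members, so the calls rest on FMC_new. The values from C-ON alone, −3.44 against NK cells and −5.76 against regulatory T cells, are set by a small count that the fit adds. They are not measured reversals.

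Tph1, the enzyme that starts serotonin synthesis, had 1 and 5 UMIs in members and 0 in the cells of the other 3 types, too few for the test. Il10 had 0 UMIs in members and was at least 5.94-fold lower than in CD4 T cells, a limit that C-ON alone does not set. Of 5 genes tested that the study followed as soluble mediators, Ccl3 and Ccl4 were lower in ILC2s than in each other type, although Ccl3, with 1 UMI in members, was not called by DESeq2. The study chose these genes, so their direction is not independent evidence. Ccl4 stood at 50.2 and 55.3 CPM against 209 CPM or more. Ccl2 was called higher than in NK cells, at 5.25 ± 0.89 (edgeR, adjusted p = 0.0036), and this turned to −3.51 without the members of another class.

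Of 48 members with at least 1 UMI of Il13, Il5, Il4, Csf2, Areg or Calca, 8 came from 14 C-ON members and 40 from 47 FMC_new members. At least 3 of these 6 genes were seen in 12 of the 61. In FMC_new, Il13 and Csf2 were seen in 15 and 5 members and together in 0. Il13 and Calca were seen together in 6 members, and Areg and Calca in 12.

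Arg1, the enzyme that splits arginine and is constitutive in ILC2s, had the largest rise over CD4 T cells among the genes called. It had 5 UMIs in 1 C-ON member and 282 UMIs in 25 FMC_new members, and these 25 cells held 50.2% of all Arg1 UMIs in that library's kept cells. CD4 T cells had 7 UMIs, regulatory T cells 5 and NK cells 1, and the differences were 9.43 ± 0.60, 10.29 ± 0.75 and 8.95 ± 0.62 (edgeR, adjusted p = 5.3e-06, 1.3e-05 and 1.4e-05). From C-ON alone the difference from NK cells was 4.54, and from FMC_new alone it was 14.25. With 1 Arg1 UMI in all NK cells, 1 library had none. A value against no UMIs is set by a small count that the fit adds and is not a measured ratio. Thinned to 1000 UMIs, 36.1% of members had an Arg1 UMI, beside 0.336% of CD4 T cells.

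Arg1 went with Il13 in FMC_new, where 13 of the 15 members with an Il13 UMI also had Arg1, beside 12 of the 32 without. Members with Il13 were deeper, at a median of 6798 UMIs against 3252. On the CPM scale, which divides by depth, Arg1 was 2089 (95% Poisson interval 1808 to 2401) against 688 (549 to 852). Stab2 was 1013 against 287 CPM in the same cells. Areg was at 1582 (1339 to 1857) against 1057 (882 to 1255) CPM, although it was seen in 5 of 15 and 19 of 32 members. Calca went the other way in CPM, at 316 (214 to 452) against 565 (440 to 715), but was seen in 6 of 15 and 14 of 32 members. Csf2 was at 0 UMIs (up to 38.9 CPM) against 467 (354 to 605) CPM. Of the Csf2 UMIs in FMC_new members, 3 members held 87.7%. Il7r was at 865 (688 to 1074) against 967 (800 to 1157) CPM, with overlapping intervals. Il13 belongs to the rule, cells of 1 library are not replicates, and these intervals cover counting error only.

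Of 18 metabolic genes tested, 4 were higher and 1 lower than in CD4 T cells, 4 and 0 against NK cells, and 4 and 1 against regulatory T cells. Slc7a8, a transporter of neutral amino acids, was at 201 and 221 CPM in members against 1.11 to 5.51 CPM elsewhere, with differences of 5.79 ± 0.46, 5.73 ± 0.54 and 6.65 ± 0.55 (edgeR, adjusted p = 2.5e-05, 6.2e-05 and 4.4e-05). Odc1, which turns ornithine, the product of arginase, into polyamine, was lower than in CD4 T cells by −1.80 ± 0.42 (adjusted p = 0.031) and than in regulatory T cells by −2.45 ± 0.42 (adjusted p = 0.0047), with −3.94 and −4.73 from C-ON alone, where it had 1 UMI. Gclc, the first enzyme of glutathione synthesis, was at 66.9 and 263 CPM, and its difference from CD4 T cells was 2.22 from both libraries and −0.01 from C-ON alone.

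Outside the lists, Stab2, a scavenger receptor best known from sinusoidal endothelium, had 5 UMIs in 3 C-ON members and 131 UMIs in 22 FMC_new members. Over both libraries, 3 of the 61 members held 50.7% of these UMIs. CD4 T cells had 6 UMIs, and the other 2 types had 0, so that members were at least 348-fold higher than regulatory T cells and 217-fold higher than NK cells. These limits rest on FMC_new: within C-ON they were 10.7-fold and 8.9-fold. Of the endothelial markers Cldn5, Flt1, Vwf and Emcn, 0 had a UMI in members of either library. DESeq2 did not call Stab2. Hes1, a target of Notch signalling, was at 402 and 106 CPM and was higher than in CD4 T cells by 7.86 ± 0.66 (edgeR, adjusted p = 3.2e-05).

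IL-33 acts through MyD88 and NF-κB. Of 15 genes of this pathway, 3 were higher than in CD4 T cells, 3 than in NK cells and 2 than in regulatory T cells, and 0 were lower. Nfkbiz, an atypical NF-κB inhibitor protein that is itself induced by IL-1 family receptors, stood at 887 and 724 CPM against 118 to 202 CPM, with differences of 2.22 ± 0.25, 2.73 ± 0.26 and 2.02 ± 0.25 (edgeR, adjusted p = 0.00032, 7.5e-05 and 0.00054). Nfkbia, which encodes IκBα, was at 1925 and 2070.2 CPM and did not pass against regulatory T cells (1.17 ± 0.31, adjusted p = 0.052). The medians of the pathway were −0.04, −0.02 and 0.19, close to those of all genes.

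Immediate early genes respond to activation and also to tissue dissociation. Of 14 tested, 7 were higher than in CD4 T cells, 8 than in NK cells and 9 than in regulatory T cells, with 0 lower. Junb was at 7699 and 8050.4 CPM against 2467 to 3199.8 CPM, and Nr4a1 was at 1824 and 1189.6 CPM against 350 to 451 CPM. The part of dissociation in the levels of Nfkbiz and Nfkbia was not tested.

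Of 16 JAK-STAT pathway genes, 1 was higher and 1 lower than in CD4 T cells, 2 and 1 against NK cells, and 1 and 0 against regulatory T cells. Cish, a feedback inhibitor induced by STAT5, was at 268 and 235 CPM and was higher than in NK cells by 2.48 ± 0.32 (edgeR, adjusted p = 0.00063). Among 11 cell cycle genes, Mki67 and Top2a were lower than in both T cell types, and Ube2c was lower than in regulatory T cells. Against NK cells edgeR called 0 of the 11, with 2 at an unadjusted p under 0.05, and DESeq2 called 0.

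Genes of the other lymphocyte lineages were read next. Of 13 ILC1 and NK genes tested, 12 were lower than in NK cells, 4 lower than in CD4 T cells and 3 lower than in regulatory T cells, with 0 higher. The NK cells were picked by their NK receptor counts, so the direction against them follows largely from that choice. With genes at 0 UMIs set at their bound, the median against NK cells was −4.08. Gzma, a granzyme, had 0 UMIs in members and was at least 163-fold lower than in NK cells, 38.1-fold within C-ON. Tbx21, which encodes the type 1 factor T-bet, had 0 and 1 UMIs and was lower than in NK cells by −5.87 ± 0.59 (edgeR, adjusted p = 8.8e-05). Of 4 ILC3 genes tested, Kit, the stem cell factor receptor, was higher in each comparison, at 117 and 73.8 CPM against 5.19 to 25.9 CPM, and the others were not called.

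Of 17 T cell genes tested, 2 were higher and 11 lower than in CD4 T cells, 1 and 4 against NK cells, and 2 and 11 against regulatory T cells, beside a rule that asked for no CD3 UMI. Cd6, a T cell costimulatory receptor, had 0 UMIs in members and was at least 18.6-fold lower than in CD4 T cells, 3.23-fold within C-ON. Tcrg-C1 and Tcrg-C4, constant segments of the gamma T cell receptor chain, were the 2 that were higher than in both T cell types. Tcrg-C4 had 4 UMIs in 4 C-ON members and 29 UMIs in 17 FMC_new members and was higher than in CD4 T cells by 5.70 ± 0.57 (edgeR, adjusted p = 0.00011) and than in regulatory T cells by 5.20 ± 0.60 (adjusted p = 0.00034). NK cells were at 59.5 and 38.9 CPM against 66.9 and 134 CPM in members, a difference of 1.45 ± 0.45 (adjusted p = 0.1).

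Of 29 surface and tissue-residency genes, 4 were higher and 7 lower than in CD4 T cells, 8 and 4 against NK cells, and 2 and 6 against regulatory T cells. Klrg1, an inhibitory receptor of mature ILC2s, was at 100 and 101 CPM and was higher than in CD4 T cells by 4.57 ± 0.52 (edgeR, adjusted p = 0.00032). Ccr8, a skin- and tissue-homing chemokine receptor, was at 536 and 549 CPM, higher than in NK cells by 6.06 ± 0.42 (adjusted p = 1.3e-05) and not called against regulatory T cells (0.79 ± 0.30, adjusted p = 0.19). Epas1, which encodes the hypoxia factor HIF-2α, was higher by 3.35 ± 0.56, 3.94 ± 0.66 and 4.40 ± 0.64 (adjusted p = 0.0036, 0.0033 and 0.0015). Cd2, an adhesion receptor, had 0 and 4 UMIs and was lower than in each type.

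The model loses Nf1 in GFAP lineage cells, and the RAS pathway was read in the members for that reason. The types compared carry the same germline mutation, and there was no library of another genotype. Differences between them therefore cannot show an effect of Nf1 loss. Over all genes tested, 4.28% were called against CD4 T cells and 4.29% against regulatory T cells. Of 15 genes, edgeR called 0 against CD4 T cells, with 3 at an unadjusted p under 0.05, and 0 against regulatory T cells, with 2, and DESeq2 called 0 in both. Against NK cells Spry1 was higher and Spry2 lower. Nf1 itself had 1 and 2 UMIs in members, and its difference from CD4 T cells was −1.79 ± 0.84 (edgeR, adjusted p = 0.31), which did not pass the test.

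The ligands of these receptors were read in cells outside these 4 types, put in classes by whichever marker score led the next by at least 3-fold. Il33 had its most UMIs in oligodendrocyte-like cells, in 43.5% of 5956 C-ON cells (246 CPM) and in 62.6% of 2353 FMC_new cells (542 CPM). These cells held 96.4% and 84.1% of the Il33 UMIs of all kept cells. Fibroblast-like cells had it in 32% of 50 and 42.5% of 73 cells, at 73.4 and 110 CPM. T cell-like cells, which should lack it, had it in 1.86% and 1.95%, at median depths of 3476 and 3623 UMIs beside 7722.5 and 7677 in oligodendrocyte-like cells. The classes left out 604 and 4676 cells.

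Hpgds, a synthase of prostaglandin D2, was seen in 36.2% of C-ON and 39.6% of FMC_new macrophage- or microglia-like cells, at 118 and 136 CPM. Ptgds, the other prostaglandin D2 synthase gene read, was seen in 64.3% and 69% of oligodendrocyte-like cells, at 2372 and 3042 CPM. T cell-like cells had Ptgds in 22.4% and 16.7%. Icosl, the ligand of ICOS, was seen in 33.2% and 28.3% of dendritic-like cells. Tslp was sparse, with 21 UMIs in 17 of 508 macrophage- or microglia-like cells of C-ON and 16 UMIs in 15 of 2594 of FMC_new.

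**Figure D4:**
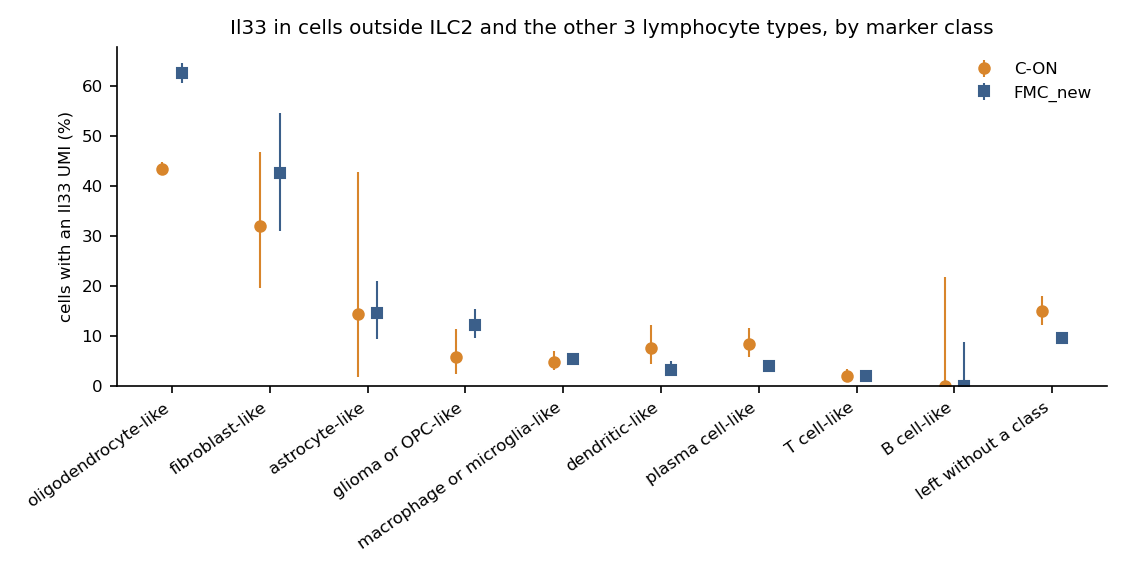
Share of cells with an Il33 UMI in each cell class and library, with exact Clopper-Pearson 95% intervals. Oligodendrocyte-like cells stand at 43.5% in C-ON and 62.6% in FMC_new, and T cell-like cells at 1.86% and 1.95%.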

How the data were processed

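UMI counts were measured by 10x 5' single-cell sequencing of 2 optic nerve libraries. The authors deposited raw counts per gene (32285 genes) and barcode, made with Cell Ranger on mm10 (version 7.2.0 per the labels, while the paper's methods name an earlier one), and intron counting is not given in the sources used here, where it would add reads from unspliced RNA. Barcodes with 500 to 5000 genes, 500 to 20000 UMIs and at most 5% mitochondrial UMIs were kept, as in the study's methods. Kept cells had a median of 6810.5 (C-ON) and 4676 (FMC_new) UMIs. Free RNA was not removed.

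CPM are UMIs scaled to the summed UMIs of the type in a library, with exact Poisson intervals, and shares have exact Clopper-Pearson 95% intervals; both, and the floor of 3 counts over the group, cover counting error only. UMIs were summed per library and type (4 types, 8 sums). edgeR (4.0.16) was fitted across all genes passing filterByExpr, with TMM scaling, type and library as terms and 3 residual degrees of freedom (common dispersion 0.0423). The unit of replication is a library, a pool of mice per the labels but an individual tumor per the paper's methods, and nothing gives whether the libraries came from separate mice, so p-values measure the spread between these sums. Genes of any membership rule were not tested. DESeq2 (1.42.0) and the other alternatives are in the closing part. The library number is the block: the 4 types of a library come from 1 suspension. On simulated data for the CD4 T cell comparison (8827 genes), 9, 39, 45 and 49 of 50 genes changed 2-, 4-, 8- and 16-fold were recovered, and 7 of 149 calls were false. The changed genes were drawn from well-counted genes only, and every gene had the same dispersion. These rates therefore do not apply to sparse genes such as Nmur1 or to genes carried by few cells such as Csf2.

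Named genes were those of the rule, those of 17 lists, and the 10 called genes with the largest rise and fall in each comparison. The members, lists and comparisons were chosen with earlier results of these data known. The class rule for ligands and the limit of 10 UMIs of another class were chosen after seeing the data. Promoters and positions came from RefSeq and GENCODE vM21. Arg1 and Hes1 had no promoter window in the table. Python 3.11.15, numpy 2.4.6, scipy 1.17.1 and pandas 2.3.3 were used.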

Additional observations from a re-analysis of the deposited data

How the results depend on the processing

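The share of ILC2s was 0.109% without members that reached another class and 0.152% without members with a UMI of Trac, Trbc1 or Trbc2, and 0.158 to 0.279% when 1 library was left out. Without the library term (no replicate block) the calls fell to 86 higher and 73 lower against CD4 T cells, 102 and 96 against NK cells and 93 and 74 against regulatory T cells. With no filter on low counts, lower calls were 434, 410 and 425. With only the 2 types compared, calls were 88 higher and 85 lower against NK cells and 106 and 98 against regulatory T cells. Leaving out members of another class gave 270 lower calls against regulatory T cells, and leaving out those with 10 or more UMIs of another class gave 307 lower against CD4 T cells and 319 against regulatory T cells. DESeq2 gave 197 higher and 143 lower calls against CD4 T cells, 236 and 143 against NK cells and 217 and 128 against regulatory T cells.

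Without replicate 2, which leaves C-ON and gives values with no test, the log2 difference from CD4 T cells was −6.18 for Neb, −0.011 for Gclc and −0.00021 for Dgat1. For Cxcl2 it was −3.44 against NK cells and −5.76 against regulatory T cells. Without replicate 1 these were 3.66, 2.90, 2.54, 4.22 and 2.45. Neb and Cxcl2 had 0 UMIs in C-ON members, so their values there are set by a small count that the fit adds. Ccl2 against NK cells was −3.51 without members of another class, −3.69 without members with T cell receptor UMIs and −3.75 without those with 10 or more UMIs of another class. Of the calls of named genes, 109 of 292 were lost without the library term, 53 of 265 with only the 2 types compared, 51 of 280 without members of another class, 36 of 284 without members with T cell receptor UMIs, 35 of 290 by DESeq2, 18 of 283 without members with 10 or more UMIs of another class, 7 of 292 with a sum of at least 3, 4 of 292 with DESeq2 size factors and 1 of 292 with no filter. The counts of calls could not be recomputed with 1 library, which leaves no residual degrees of freedom. The causes were not tested. With 14 members and 59749 UMIs, C-ON sets the limit: 1 UMI there is 16.7 CPM.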
